A study of Mus musculus with 11 samples.

Results

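Day 3 of a differentiation of mouse embryonic stem cells was compared with day 2, to ask which transcripts changed over the day taken as the onset of neurons. The 2 unsorted libraries of day 3 were set against the 2 unsorted libraries of day 2, which are 4 of the 11 libraries of the study, and 16810 of the 38197 genes listed passed the filter on low counts and were tested. The study measured polyadenylated RNA by sequencing while cells in monolayer were led toward ventral hindbrain neurons, in 8 libraries of unsorted cells (2 a day from day 0 to day 3) and 3 of cells sorted by Prominin-1 (day 3.5). All groups were wild type cells of strain 129, and the label of day 0 names E14, an established mouse embryonic stem cell line. Day 2 and day 3 cells had both received retinoic acid (RA), a vitamin A derivative that gives neural cells a hindbrain identity, and SAG, a small molecule that activates Smoothened and so switches on hedgehog signaling, which gives neural cells a ventral identity. Both agents were present from day 0 to day 3, so day 3 differs from day 2 by a further day under the same agents. The column names of the count table carry the words Nondiff and Control for these libraries, whereas their labels call the cells differentiating, and the labels were followed.

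The 4 libraries held from 26926637 to 30264385 counts. No label states that replicate libraries were separate cultures, and a p-value here reflects spread among these libraries alone, which may be technical. That spread was estimated over the 8 unsorted libraries of days 0 to 3, since 2 libraries a day give little by themselves. The log2 difference between the replicate libraries of a day had an SD over genes of 0.28 for day 2, 0.394 for day 3, 0.5 for day 0 and 0.493 for day 1. Levels are counts scaled to library size (CPM) after TMM scaling, given for replicates 1 and 2 of a day in that order, and they are not comparable between genes because they are not per length. Fold changes are log2 values of day 3 over day 2 with their standard error from edgeR, and p-values are Benjamini-Hochberg adjusted over all genes tested, with a gene called when its adjusted p was under 0.05.

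Neurons arise when a dividing neural progenitor expresses proneural factors of the basic helix-loop-helix family, leaves the cell cycle and switches on genes for a neuronal cytoskeleton, for RNA-binding proteins of the Elavl family and, later, for ion channels and vesicle release. In the ventral hindbrain the midline floor plate secretes Sonic hedgehog, netrin and Slit proteins, and the progenitors beside it give rise to motor neurons of the branchial and visceral kind, which are known for Isl1 and acetylcholine. Proneural factors bind short DNA elements known as E-boxes, of which CAGCTG and CAGATG are forms found at many neuronal genes.

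At day 3, 473 genes were higher (2.81% of those tested) and 211 were lower (1.26%). In each of the 684 called genes the day 3 libraries did not overlap the day 2 libraries, but 30.9% of all tested genes also separated upward in this way and 31% downward. The median log2 fold change over all tested genes was -0.01. The higher genes had a median of 1.85 and the lower genes a median of -1.77, and 417 and 170 of them changed at least 2-fold. When the trend of counts along GC content was removed before the test (a GC offset), 1312 genes were higher and 1021 lower, so the share of higher genes among the calls moved from 69.2% to 56.2%. How many genes were called also depended on which libraries were in the fit. With day 3 replicate 1 left out there were 10 higher and 3 lower genes, without day 2 replicate 2 there were 18 and 6, without day 2 replicate 1 there were 54 and 30, and without day 3 replicate 2 there were 366 and 157.

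The genes that stayed called with any 1 of the 8 libraries left out were, for those higher, Nefm, Nefl, Dcx, Stmn2, Elavl3, Elavl4, Ebf1, Ebf3, Cntn2 and Clvs1, and, for those lower, Dmrt1 and Gdf3. Of the 10 higher genes, 9 belong to the neuronal lists below, and Clvs1 encodes a lipid-binding protein of endosomes. Clvs1 (GRCm38 chr4:9269293-9451691) stood at 2.42 and 1.67 CPM at day 2 and at 44.5 and 33.7 CPM at day 3 (log2 fold change 4.26 ± 0.33, adjusted p = 0.000801). Its exons overlap those of Asph on the other strand, and no source used here says whether counting used strand, which makes its level uncertain.

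The label of the comparison was checked against markers of neurons and of neural progenitors. All 5 neuronal markers, namely Dcx, Elavl3, Elavl4, Stmn2 and Map2, rose. They were already present at day 2, between 9.83 CPM for Dcx and 39.7 CPM for Map2 as means of the 2 libraries. These transcripts were thus detected before day 3. In the stem cells of day 0 the means were 311 CPM for Stmn2, 12.6 for Map2, 4.83 for Elavl3, 4.02 for Elavl4 and 0.819 for Dcx. The presence of Stmn2 is therefore not specific to neurons here. Among progenitor markers Nes, Vim and Fabp7 rose, while Sox2 (156 CPM at day 2 and 195 at day 3), Sox1 (88.5 and 77.5) and Prom1 (149 and 238) were not called. In bulk RNA, more cells of a type and more RNA per cell cannot be told apart.

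The largest rises by rule were those of Chat, Scg2, Nefm, Gnat3 and Corin. The 250 bases before the RefSeq start of Chat, Scg2, Gnat3 and Corin are shown for that reason. Nefm has no entry in the promoter table. Elavl4 is added, chosen after its values were seen, because the window before its second listed start holds both E-box forms side by side. Sequences are from the RefSeq promoter table on GRCm38.p6, read 5′ to 3′ on the gene's own strand, with CAGCTG, or CAGATG on either strand (CATCTG on the other), in capitals.
Chat: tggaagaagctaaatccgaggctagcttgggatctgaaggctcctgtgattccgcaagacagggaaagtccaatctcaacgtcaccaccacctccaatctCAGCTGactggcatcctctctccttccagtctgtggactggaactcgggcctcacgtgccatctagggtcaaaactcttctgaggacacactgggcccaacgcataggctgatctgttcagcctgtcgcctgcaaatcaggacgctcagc
Scg2: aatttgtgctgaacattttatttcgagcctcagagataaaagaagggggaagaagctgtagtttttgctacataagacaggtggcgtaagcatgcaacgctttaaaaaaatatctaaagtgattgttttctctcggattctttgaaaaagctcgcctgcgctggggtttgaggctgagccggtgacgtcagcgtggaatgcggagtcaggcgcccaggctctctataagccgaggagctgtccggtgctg
Gnat3: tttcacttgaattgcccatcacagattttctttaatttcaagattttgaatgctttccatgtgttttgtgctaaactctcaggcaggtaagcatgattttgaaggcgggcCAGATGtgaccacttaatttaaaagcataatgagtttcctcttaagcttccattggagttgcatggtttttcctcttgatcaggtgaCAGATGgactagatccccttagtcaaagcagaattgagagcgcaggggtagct
Corin: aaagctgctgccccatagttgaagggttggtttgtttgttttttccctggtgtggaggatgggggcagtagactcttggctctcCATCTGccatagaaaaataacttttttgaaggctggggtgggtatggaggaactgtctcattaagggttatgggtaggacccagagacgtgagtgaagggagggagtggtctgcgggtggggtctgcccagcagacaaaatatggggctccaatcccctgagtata
Elavl4: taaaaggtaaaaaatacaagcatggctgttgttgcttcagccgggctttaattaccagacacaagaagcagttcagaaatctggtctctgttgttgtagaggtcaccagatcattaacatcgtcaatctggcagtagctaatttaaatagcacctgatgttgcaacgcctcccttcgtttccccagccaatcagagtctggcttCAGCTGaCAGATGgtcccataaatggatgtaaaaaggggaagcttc
The windows are chr14:32465910-32466159 (minus strand) for Chat, chr1:79440027-79440276 (minus) for Scg2, chr5:17962320-17962569 (plus) for Gnat3, chr5:72504541-72504790 (minus) for Corin and chr4:110287528-110287777 (minus) for Elavl4. Chat has 1 CAGCTG, Gnat3 has 2 CAGATG, Corin has 1 CAGATG read on the other strand, Elavl4 has 1 of each, and Scg2 has neither. The windows of Chgb, Cacna1e, Ebf1, Dcx, Cntn2 and Myt1 were also searched and are not shown. None of them holds either form at any listed start. Of all 32851 windows in the table, 13% hold CAGCTG and 14.4% hold CAGATG on at least 1 strand, and the 2 motifs cannot overlap each other. Counted per gene over all its listed starts, CAGCTG was found in 19.7% of 320 higher genes, 17.1% of 140 lower genes and 14.7% of 10637 genes not called, and CAGATG in 15.0%, 12.1% and 11.8%. These are matches of letters, given as a description with no test.

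Transcription factors of neurogenesis had the highest median of all 47 lists, 2.06 on the log2 scale against -0.01 over all tested genes. Of 24 tested members 13 rose and 1 fell. Ebf1 and Ebf3 are helix-loop-helix factors of young postmitotic neurons. Ebf1 (chr11:44617317-45008091) stood at 1.04 and 1.31 CPM at day 2 and at 26.6 and 16.8 CPM at day 3 (log2 fold change 4.21 ± 0.34, adjusted p = 0.000853). Ebf3 stood at 6.84 and 5.89 CPM and then at 50.4 and 53 CPM (3.02 ± 0.23, adjusted p = 0.000765). In both genes each day 3 library lay far above each day 2 library. Ebf1 had stood higher before, with means of 12.15 CPM at day 0 and 1.72 CPM at day 1. The presence of Ebf1 is therefore not specific to neurons here.
St18, a zinc finger factor of the Myt1 family, went from 2.82 and 2.47 CPM to 39.5 and 32.3 CPM (3.76 ± 0.36, adjusted p = 0.0026). Its relative Myt1, which holds down non-neuronal genes, went from 3.16 and 1.64 CPM to 48.3 and 37.7 CPM (4.17 ± 0.42, adjusted p = 0.00352). Neither gene's days overlapped. Within the Neurod family, Neurod4 had 30.9 and 25.7 CPM at day 2 and 145 and 133 CPM at day 3 (2.30 ± 0.22, adjusted p = 0.0026). Neurod1 rose less, from 3.72 and 3.78 CPM to 9.59 and 10.4 CPM (1.42 ± 0.32, adjusted p = 0.0435), and Neurod2 had 0 counts in all 4 libraries, which allows up to 3 counts in each. Neurod1 was also present earlier, with means of 6.21 CPM at day 0 and 1.14 CPM at day 1. Nhlh2, a factor of newly born neurons, went from 3.12 and 5.09 CPM to 38.3 and 44.6 CPM (3.34 ± 0.37, adjusted p = 0.00509). The member that fell was Neurog3, a proneural factor best known from the endocrine pancreas, from 2.68 and 1.53 CPM to 0.377 and 0.228 CPM. With day 3 replicate 1 out of the fit, 2 of these 14 calls held and the adjusted p of the 14 ran from 0.0146 to 0.239. With day 2 replicate 2 left out, 5 held, and without day 2 replicate 1, 8 held.

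Genes of the neuronal cytoskeleton had the most calls of any list. Of 30 tested members 21 rose and 1 fell, with a median of 1.55. Dcx (chrX:143855842-143933311), the microtubule-binding protein doublecortin of migrating young neurons, stood at 8.4 and 11.3 CPM at day 2 and at 124.6 and 160.9 CPM at day 3 (log2 fold change 3.86 ± 0.23, adjusted p = 0.000221). Map2, a microtubule protein of dendrites, went from 47.3 and 32.1 CPM to 206 and 130 CPM (2.08 ± 0.26, adjusted p = 0.00649). In both genes the lower day 3 library stood well above the higher day 2 library.
The neurofilament genes, which encode the intermediate filaments of axons, did not move together. Nefm (chr14:68082590-68124846) went from 6.06 and 5.52 CPM to 261 and 168 CPM (5.21 ± 0.26, adjusted p = 0.000113). Nefl (chr14:68083863-68089095) went from 10.1 and 9.41 CPM to 143 and 112 CPM (3.71 ± 0.20, adjusted p = 0.000134). The annotated exons of these neighbours overlap on opposite strands, so reads of each may have been counted for the other. Nefh, the heavy subunit that belongs to mature axons, went the other way, from 8.4 and 13.4 CPM to 0.472 and 3.09 CPM (-2.61 ± 0.61, adjusted p = 0.0487). Per length, Nefm had 1.38 FPKM and Nefl 2.29 FPKM at day 2, and Nefm had 53 FPKM and Nefl 31 FPKM at day 3 as means of the deposited values, so their order turned.
Among the stathmins, proteins that destabilise microtubules, 3 of 4 rose. Stmn2, found in growth cones, went from 20 and 15.3 CPM to 108 and 104 CPM (2.59 ± 0.18, adjusted p = 0.000425). Stmn4 went from 2.27 and 1.93 CPM to 15.6 and 13.2 CPM (2.78 ± 0.39, adjusted p = 0.00954), and Stmn3 rose by 2.35 ± 0.40 (adjusted p = 0.0177). The ubiquitous Stmn1 was not called, at 19.3 and 15.5 CPM and then 32.8 and 26.2 CPM (0.76 ± 0.21, adjusted p = 0.0821). In deposited FPKM, Stmn1 had means of 131.7 at day 2 and 224.6 at day 3, against 7.716 and 48.1 for Stmn2. Yet over both day 2 libraries Stmn1 had 947 counts and Stmn2 had 959. The level of Stmn1 relative to Stmn2 is therefore uncertain. Whether gene length alone accounts for the difference between counts and FPKM was not tested.
Stmn2 had stood higher before, with means of 311 CPM at day 0 and 63.8 CPM at day 1. Nefl likewise had 25 CPM at day 0 before its 9.76 CPM at day 2, whereas Dcx had 0.819 and 2.09 CPM at days 0 and 1. Nefh had means of 38.4 and 35.4 CPM at days 0 and 1 and 10.9 CPM at day 2, so it was falling before day 3. In the fit that lacked day 3 replicate 1, 4 of the 22 calls of the list held, with adjusted p from 0.00116 to 0.28. Without day 2 replicate 2 there were 4 as well, and without day 2 replicate 1 there were 7.

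**Figure D1:**
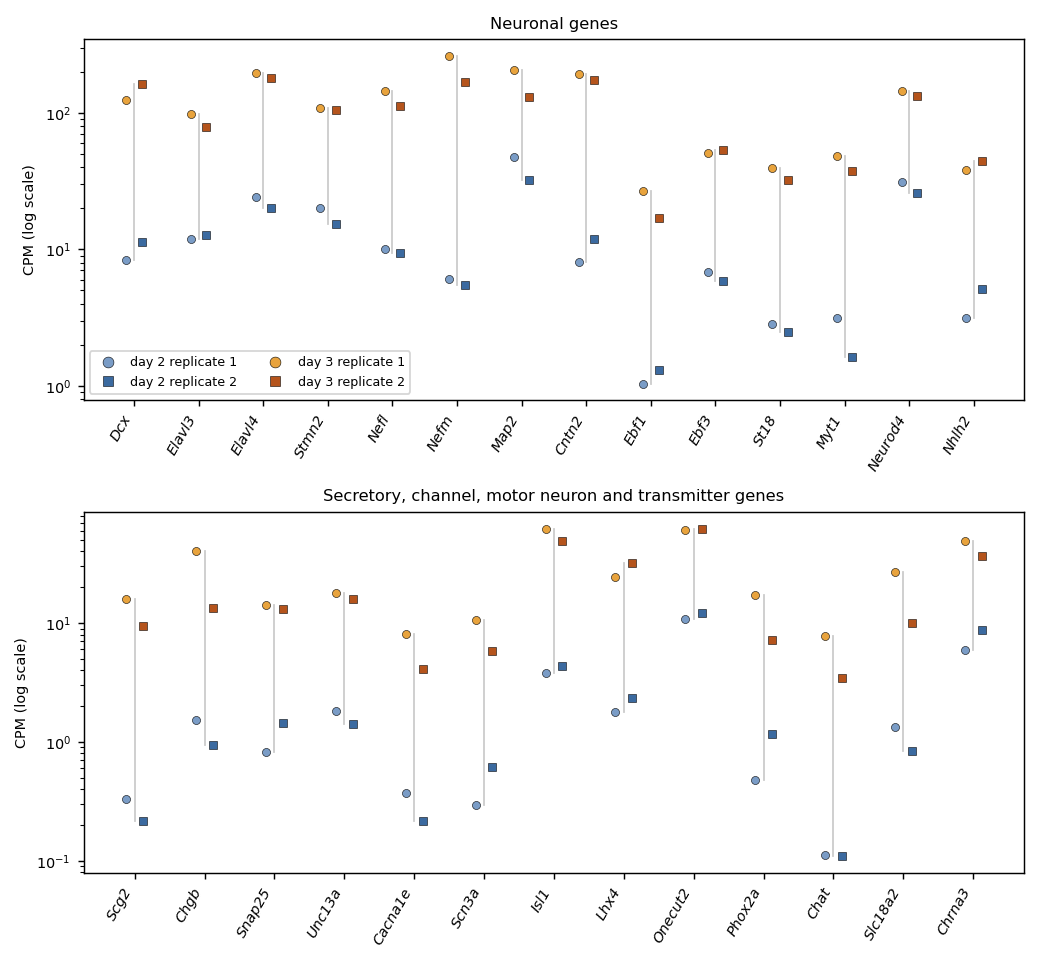
Level of neuronal genes in each library of days 2 and 3, in CPM on a log axis, with a grey line joining the 4 values of a gene. In every gene plotted both day 3 libraries lie above both day 2 libraries, for example Dcx at 124.6 and 160.9 CPM after 8.4 and 11.3 CPM.

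**Figure D2:**
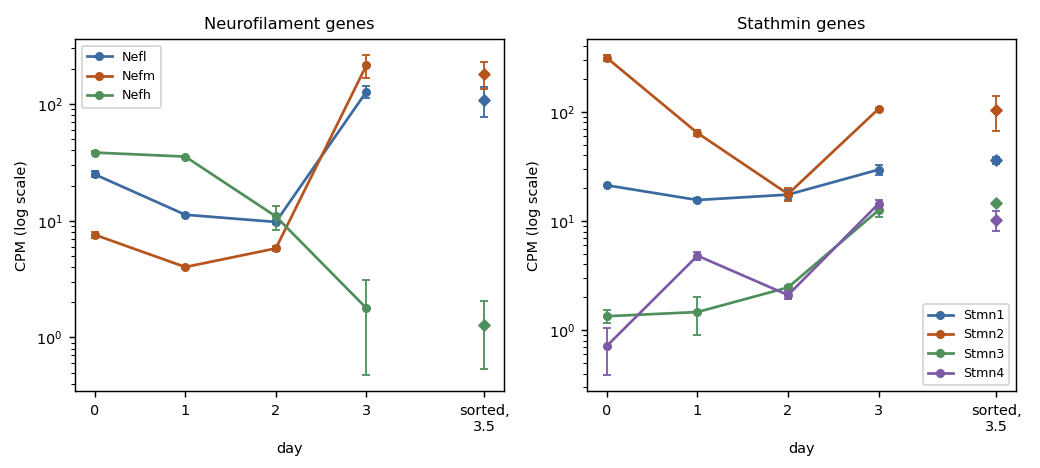
Mean CPM (log axis) of the neurofilament genes and of the stathmin genes at days 0 to 3 and in the sorted libraries called day 3.5. Bars at days 0 to 3 end at the 2 libraries, and bars of the sorted cells are 1 SD of 3 libraries. CPM levels are not comparable between genes, and the level of Stmn1 relative to Stmn2 is uncertain. Nefl and Nefm rise from day 2 to day 3 while Nefh falls, and Stmn2 falls from 311 CPM at day 0 to day 2 before it rises.

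RNA-binding proteins that direct neuronal splicing and mRNA stability rose in part, 7 of 20 tested and none lower, with a median of 0.93. Elavl4 (chr4:110203722-110351909), the HuD protein of neurons, stood at 24.3 and 20 CPM at day 2 and at 196 and 181 CPM at day 3 (log2 fold change 3.09 ± 0.21, adjusted p = 0.00039). Elavl3, its near relative HuC, went from 12 and 12.8 CPM to 97.6 and 78.8 CPM (2.83 ± 0.23, adjusted p = 0.000853). The days did not overlap in either gene. Elavl2, the neuronal member that is also found in germ cells, was not called, at 26.3 and 30.6 CPM and then 44.7 and 74.9 CPM (1.07 ± 0.28, adjusted p = 0.0674). Of Elavl2, Elavl3 and Elavl4, Elavl2 had the highest FPKM at day 2 with 6.91, ahead of Elavl4 with 5.5 and Elavl3 with 1.91. At day 3 Elavl4 led them with 49.1, ahead of Elavl2 with 16.3 and Elavl3 with 14.
The splicing factors Srrm4, which includes neural microexons, and Nova2 rose by 2.26 ± 0.22 (adjusted p = 0.00267) and 1.80 ± 0.18 (adjusted p = 0.0031). Srrm4 had 11.5 and 10.4 CPM before 54.2 and 50.1 CPM, and Nova2 had 22.9 and 20.9 CPM before 74.8 and 77.3 CPM. Without day 3 replicate 1, 2 of the 7 calls held (adjusted p from 0.0139 to 0.247). With day 2 replicate 2 left out there were 2, and without day 2 replicate 1 there were 4. Rest, the repressor that keeps neuronal genes silent outside neurons, was not called, at 143 and 139 CPM and then 125.5 and 121 CPM (-0.19 ± 0.17, adjusted p = 0.584).

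Genes of vesicle release and secretory granules followed, with 15 of 31 tested higher, none lower and a median of 1.19. Scg2, which encodes the granule protein secretogranin II, had 9 and 6 counts at day 2 and 507 and 292 counts at day 3, or 0.334 and 0.218 CPM and then 15.9 and 9.49 CPM (log2 fold change 5.51 ± 0.61, adjusted p = 0.00509). Chgb, the granule protein chromogranin B, went from 1.52 and 0.945 CPM to 40.1 and 13.3 CPM (4.44 ± 0.60, adjusted p = 0.00843). Both were higher in day 3 replicate 1 than in replicate 2, and both days were apart. Snap25, a part of the complex that fuses vesicles with the membrane, went from 0.818 and 1.45 CPM to 14.3 and 13.1 CPM (3.59 ± 0.47, adjusted p = 0.00733). Unc13a, which primes vesicles, rose by 3.39 ± 0.38 (adjusted p = 0.00509) and Syt11, a synaptotagmin, by 1.71 ± 0.22 (adjusted p = 0.00702).
Voltage-gated channels had 7 of 26 tested higher, none lower and a median of 0.89. Cacna1e, a calcium channel of the R type, went from 0.372 and 0.218 CPM to 8.08 and 4.1 CPM (4.35 ± 0.53, adjusted p = 0.0063). Scn3a, the sodium channel of embryonic neurons, went from 0.297 and 0.618 CPM to 10.7 and 5.82 CPM (4.16 ± 0.54, adjusted p = 0.00702). Kcnd3 and Scn9a also rose, by 2.54 ± 0.39 (adjusted p = 0.0137) and 2.43 ± 0.40 (adjusted p = 0.0165). With day 3 replicate 1 left out, and likewise without day 2 replicate 2, none of the 22 calls of these 2 lists held, and the adjusted p without day 3 replicate 1 ran from 0.0551 to 0.311 for vesicle genes and from 0.0697 to 0.271 for channels. Without day 2 replicate 1, 2 calls of each list held.

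Factors of hindbrain motor neurons had a median of 1.90, with 7 of 14 tested higher and none lower. Isl1 (chr13:116298281-116309689), a LIM homeodomain factor of motor neurons, stood at 3.79 and 4.36 CPM at day 2 and at 62.2 and 48.7 CPM at day 3 (log2 fold change 3.77 ± 0.39, adjusted p = 0.00352). Phox2a, a homeodomain factor of branchial and visceral motor neurons, went from 0.483 and 1.16 CPM to 17.1 and 7.25 CPM (3.88 ± 0.71, adjusted p = 0.0223). The libraries of the 2 days were apart in both genes.
Lhx4, a LIM factor shared by several motor neuron classes, went from 1.78 and 2.33 CPM to 24.2 and 31.9 CPM (3.77 ± 0.47, adjusted p = 0.00649), and Onecut2 from 10.7 and 12.1 CPM to 60.6 and 62 CPM (2.43 ± 0.29, adjusted p = 0.00538). Chat, the enzyme that makes acetylcholine, had 3 counts in each day 2 library and 247 and 107 counts at day 3, or 7.77 and 3.48 CPM, so no fold is given (adjusted p = 0.00518). Slc18a2, the vesicular transporter of monoamines, went from 1.34 and 0.836 CPM to 26.7 and 10 CPM (4.08 ± 0.68, adjusted p = 0.0166), and Th, which starts catecholamine synthesis, went from 0.111 and 0.254 CPM to 1.48 and 1.76 CPM. These were the 3 higher genes of 10 tested for transmitter synthesis and transport, none lower, with a median of 0.11. Ddc, the next enzyme of monoamine synthesis, was not called, at 32 and 35 CPM and then 15.6 and 18 CPM (-0.99 ± 0.24, adjusted p = 0.0517).
Nicotinic acetylcholine receptor subunits had 5 of 9 tested higher and none lower, with a median of 1.27. The clustered genes Chrna3, Chrnb4 and Chrna5, whose products assemble into the ganglionic receptor, were among them. Chrna3 went from 5.98 and 8.69 CPM to 49.4 and 36.6 CPM (2.55 ± 0.30, adjusted p = 0.00538), and Chrnb4 from 4.2 and 6.65 CPM to 32.8 and 23.2 CPM (2.37 ± 0.30, adjusted p = 0.00691). Factors of interneurons and serotonergic neurons had 0 of 14 tested higher and 0 lower with a median of 0.00, and the serotonergic factor Lmx1b had 14.7 and 16.5 CPM and then 33 and 20.2 CPM (adjusted p = 0.451). With day 3 replicate 1 out of the fit, none of the 15 calls of the motor neuron, transmitter and nicotinic lists held (adjusted p from 0.0547 to 0.208). Without day 2 replicate 2, 0, 0 and 1 held, and without day 2 replicate 1, 3, 1 and 0 held.

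Some genes for surface proteins of growing axons rose as well. Of 21 tested adhesion genes 5 rose and none fell, with a median of 1.37. Cntn2 (chr1:132509427-132543256), the axonal contactin TAG-1, stood at 8.14 and 12 CPM at day 2 and at 192 and 174 CPM at day 3 (log2 fold change 4.19 ± 0.32, adjusted p = 0.000765). Its relative in axon growth, L1cam, rose by 2.98 ± 0.33 (adjusted p = 0.00509), and Ncam1 went from 20.7 and 25.4 CPM to 57.3 and 62.1 CPM (1.37 ± 0.20, adjusted p = 0.00975). In axon guidance 8 of 31 tested rose and none fell, with a median of 0.59. Plxna4, a semaphorin receptor, went from 7.25 and 6.94 CPM to 49.5 and 24.4 CPM (2.38 ± 0.37, adjusted p = 0.014), and the repulsive netrin receptor Unc5c rose by 1.89 ± 0.35 (adjusted p = 0.0224). In the fit that lacked day 3 replicate 1, 1 of the 5 adhesion calls and 0 of the 8 guidance calls held (adjusted p from 0.0196 to 0.333). With day 2 replicate 2 left out, and likewise without day 2 replicate 1, 2 and 0 held.

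**Figure D3:**
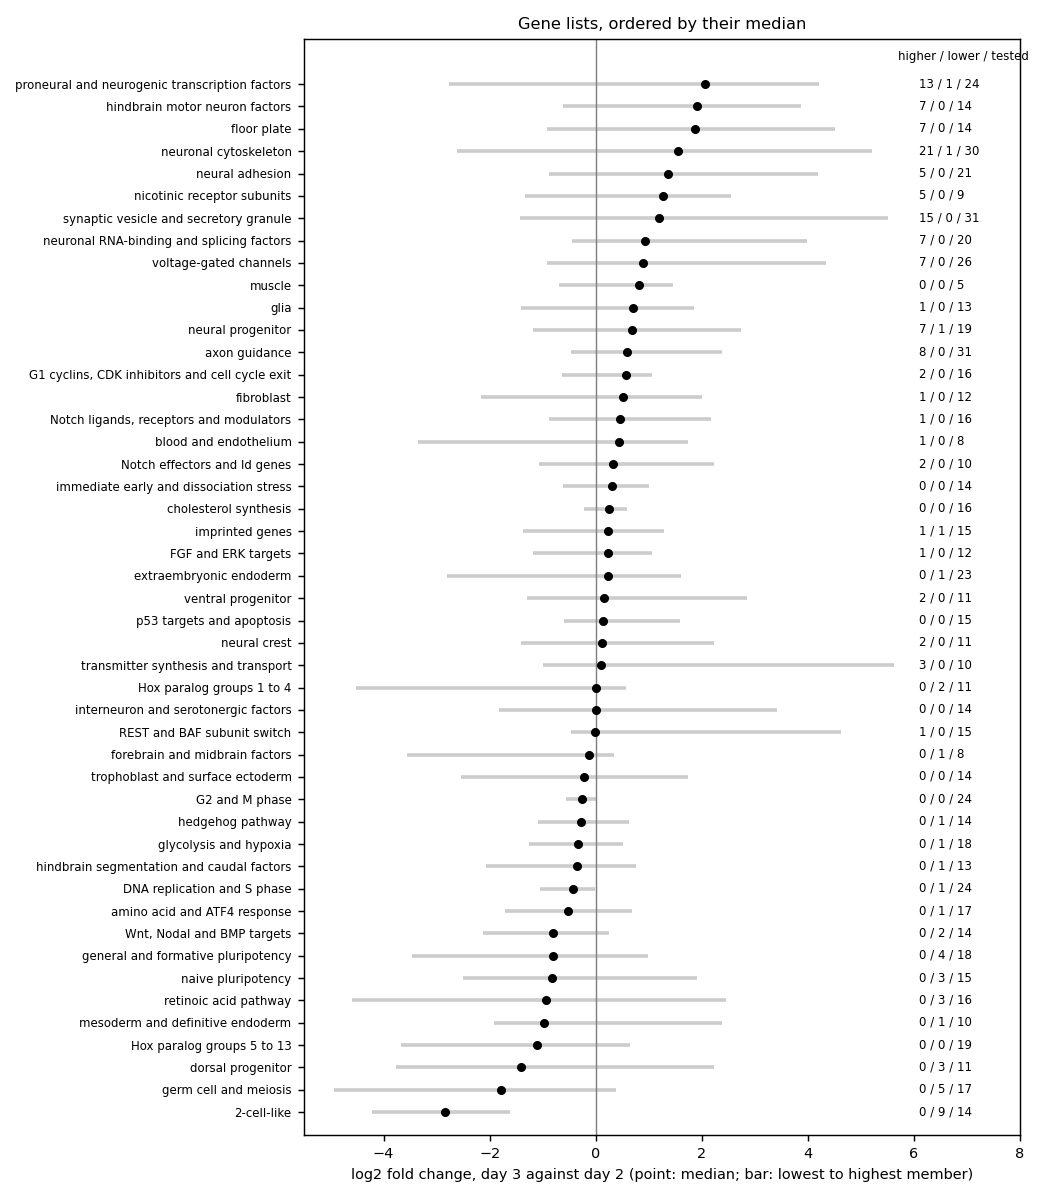
Median log2 fold change of day 3 over day 2 for the tested members of each of the 47 gene lists (black point), with a bar from the lowest to the highest member and the numbers of members called higher, called lower and tested at the right. Lists of neurogenesis, motor neurons, floor plate and cytoskeleton lie at the top, with medians from 1.55 to 2.06, and the 2-cell-like list lies at the bottom with -2.84.

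Of 14 tested floor plate genes 7 rose and none fell, with a median of 1.88, and their levels differed between the 2 libraries of day 3. Shh (chromosome 5), the secreted ventral signal, stood at 50.8 and 26.4 CPM at day 2 and at 279 and 114 CPM at day 3 (log2 fold change 2.35 ± 0.44, adjusted p = 0.0249). Spon1, the matrix protein F-spondin, went from 34.7 and 37.8 CPM to 470 and 206 CPM (3.22 ± 0.41, adjusted p = 0.00654). Slit2, which repels axons from the midline, went from 80.6 and 46.3 CPM to 562 and 291 CPM (2.75 ± 0.34, adjusted p = 0.00649), and Slit1 from 91.4 and 69.6 CPM to 571 and 248 CPM. In these 4 genes day 3 replicate 1 had the highest level of the 4 libraries and replicate 2 still lay above both day 2 libraries.
Corin, a membrane protease known from ventral midline progenitors, went from 1.82 and 0.472 CPM to 42.5 and 10 CPM (4.52 ± 0.80, adjusted p = 0.0199). The defining floor plate factor Foxa2 was not called, with means of 83.8 CPM at day 2 and 144 CPM at day 3, nor was Ntn1 (adjusted p = 0.0582). Summed over the list, the libraries held 1272 and 906.1 CPM at day 2 and 4525 and 2269 CPM at day 3, and 12 of 14 members were higher in replicate 1 than in replicate 2 on each day. Without day 3 replicate 1, and likewise without day 2 replicate 2, none of the 7 calls held (adjusted p without day 3 replicate 1 from 0.0637 to 0.364), and without day 2 replicate 1, 2 held. Without day 3 replicate 2 all 7 held.

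Progenitor genes of the dorsoventral axis changed in part. Of 11 ventral progenitor genes 2 rose, with a median of 0.16. Nkx2-2, the factor of the most ventral progenitors beside the floor plate, stood at 2.27 and 1.02 CPM at day 2 and at 11.7 and 12.1 CPM at day 3 (log2 fold change 2.86 ± 0.45, adjusted p = 0.0142). Nkx6-1, of the wider motor neuron progenitor region, went from 70.8 and 58.3 CPM to 133 and 138 CPM (1.07 ± 0.18, adjusted p = 0.0182). Olig2, of somatic motor neuron progenitors, was not called, and its day 3 libraries lay on either side of day 2, at 14.9 and 45.1 CPM after 32.1 and 33.2 CPM. Pax6, of more dorsal progenitors, had 62.6 and 130 CPM and then 12.3 and 65.9 CPM, with the 2 days overlapping (adjusted p = 0.274).
Of 11 dorsal progenitor genes 3 fell and none rose, with a median of -1.40. In 7 of the 11 both day 3 libraries lay below both day 2 libraries, against 31% of all tested genes, and 2 separated upward. Msx1, a target of dorsal BMP signals, went from 8.1 and 16.4 CPM to 0.566 and 1.95 CPM (-3.28 ± 0.56, adjusted p = 0.0182). Zic2 went from 21 and 26.3 CPM to 3.84 and 9.36 CPM (-1.84 ± 0.37, adjusted p = 0.0301), and Zic5 fell by 1.95 on the log2 scale. In all 3 the lowest library was day 3 replicate 1, and the days did not overlap. With day 3 replicate 1 left out, none of the 5 calls of these 2 lists held (adjusted p from 0.106 to 0.162). Without day 2 replicate 2 none held, and without day 2 replicate 1, 1 of each list held.
Hedgehog pathway genes had 1 of 14 lower and none higher, with a median of -0.28. The gene that fell was Gli3, whose product mainly represses hedgehog targets, from 160 and 169 CPM to 57.4 and 97 CPM (-1.09 ± 0.23, adjusted p = 0.0346, and 0.191 without day 3 replicate 1). The direct targets Ptch1 (490 CPM at day 2 and 455 at day 3) and Gli1 (76.7 and 56.4) were not called.

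**Figure D4:**
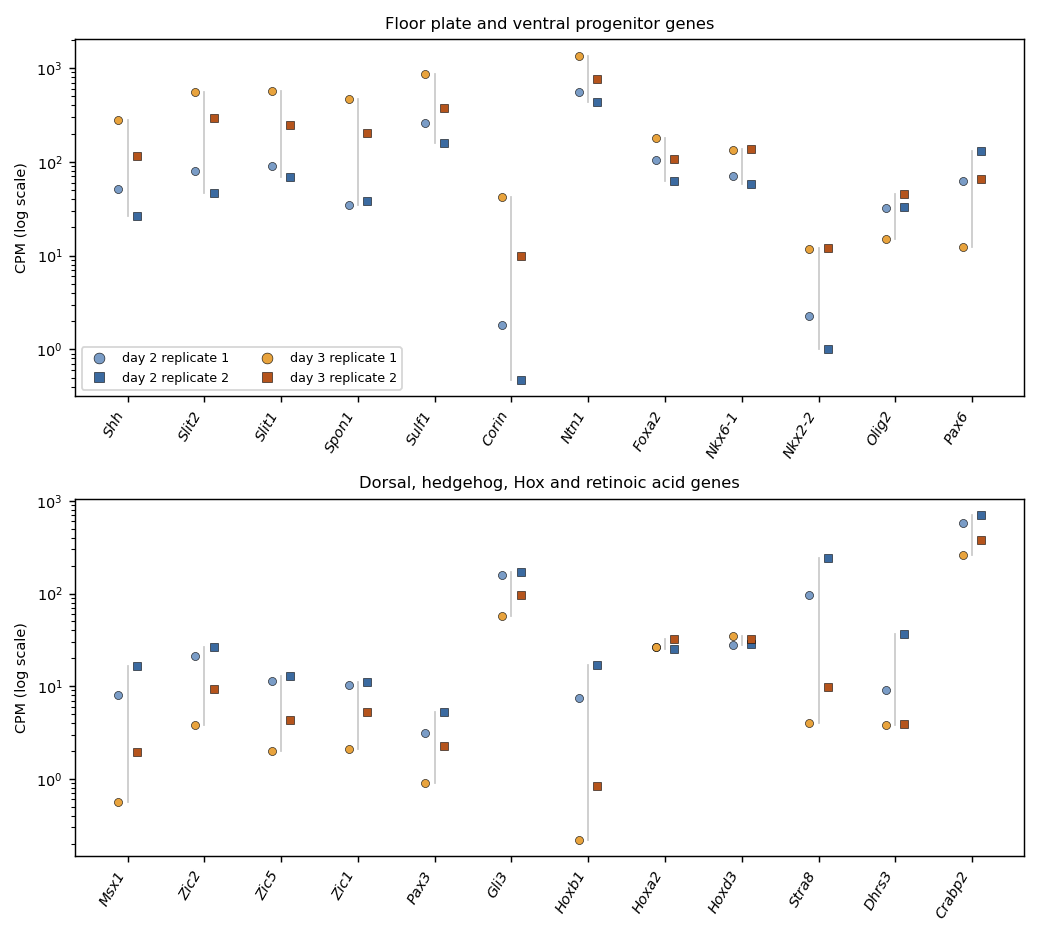
Level of floor plate and ventral genes (upper panel) and of dorsal, hedgehog, Hox and retinoic acid genes (lower panel) in each library of days 2 and 3, in CPM on a log axis, with a grey line joining the 4 values of a gene. Shh reaches 279 CPM in day 3 replicate 1 and 114 CPM in replicate 2, and Msx1 drops to 0.566 and 1.95 CPM.

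Genes that respond to RA fell in part. Of 16 tested genes of the RA pathway 3 fell and none rose, with a median of -0.93. Stra8, a gene induced by RA and needed for meiosis, stood at 96.4 and 239 CPM at day 2 and at 3.99 and 9.88 CPM at day 3 (log2 fold change -4.59 ± 0.54, adjusted p = 0.00538). Crabp2, which carries RA to its nuclear receptor, went from 575 and 696 CPM to 263 and 376 CPM (-0.99 ± 0.21, adjusted p = 0.0361). Dhrs3, which turns retinaldehyde back into retinol, went from 9.07 and 36.2 CPM to 3.77 and 3.93 CPM (-2.55 ± 0.55, adjusted p = 0.0386). Its day 2 libraries lay far apart, so the size of its fall depends on day 2 replicate 2. The receptor gene Rarb was not called, at 91.35 and 131.6 CPM and then 34.8 and 62.5 CPM (adjusted p = 0.0549). Stra8 and Dhrs3 were already lower at day 2 than at day 1, with means of 1377 and 64.3 CPM at day 1 and 168 and 22.6 CPM at day 2. Crabp2 and Rarb instead had lower means at day 1 (388 and 82.5 CPM) than at day 2 (635 and 111.5 CPM).
In the Hox clusters, whose genes mark position along the body axis, 2 of 11 tested genes of groups 1 to 4 fell and none rose, with a median of 0.01. Hoxb1, 1 of the 2, went from 7.54 and 16.9 CPM to 0.22 and 0.845 CPM (-4.51 ± 0.56, adjusted p = 0.00649). The days were apart, with day 2 replicate 2 the highest library of days 2 and 3. Hoxb1 had stood higher before, with a mean of 51.7 CPM at day 1. Hoxa2 was not called, at 26.3 and 25.4 CPM and then 26.8 and 32.3 CPM.
Groups 5 to 13 had 0 of 19 called and a median of -1.10. With DESeq2 6 were lower and with the GC offset 4. Over all genes these settings called 523 and 1021 lower, against 211 in the main fit. In 13 of 19 the day 3 libraries lay below both day 2 libraries, against 31% of all tested genes. Hoxb9 was among these, at 5.02 and 20.9 CPM and then 0.817 and 2.54 CPM (adjusted p = 0.0566). Among other regional factors Gbx2, of the anterior hindbrain, fell by 2.07 on the log2 scale (adjusted p = 0.0139), as 1 of 13 genes of hindbrain segmentation. None of the 6 calls of these lists held when day 3 replicate 1 was left out (adjusted p from 0.0697 to 0.322). With day 2 replicate 2 left out, 1 RA gene and 1 Hox gene held, and without day 2 replicate 1, 2 of each and Gbx2 held.

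Genes of neural progenitors were higher more often than lower. Of 19 tested 7 rose and 1 fell, with a median of 0.68. Fabp7, a lipid-binding protein of radial glia, went from 3.42 and 3.74 CPM to 16.9 and 30.9 CPM (log2 fold change 2.74 ± 0.38, adjusted p = 0.00939). Pou3f2, a POU factor of neural progenitors and neurons, went from 48.9 and 45.2 CPM to 96.1 and 123 CPM (1.22 ± 0.22, adjusted p = 0.0223). Lin28a, an RNA-binding protein of early embryonic cells, fell from 1053 and 1042 CPM to 425 and 628 CPM (-0.99 ± 0.20, adjusted p = 0.0327). Ttyh1, an astroglial membrane protein, rose by 2.30 ± 0.31 (adjusted p = 0.00834).
Notch signaling keeps progenitors from differentiating. Of 16 Notch ligands, receptors and modulators 1 was called higher, Dll3 (2.12 ± 0.48, adjusted p = 0.0436). In 12 of the 16 both day 3 libraries lay above both day 2 libraries, against 30.9% of all tested genes, and none separated downward. Hey1 and Nrarp were the 2 of 10 effectors that rose. Hey1, a repressor induced by Notch, went from 19.4 and 13 CPM to 81.8 and 66.9 CPM (2.20 ± 0.29, adjusted p = 0.00733). Nrarp, a feedback inhibitor of Notch, went from 15.5 and 14.4 CPM to 38.8 and 49.5 CPM (1.56 ± 0.27, adjusted p = 0.0179). Neither Hes1 (adjusted p = 0.577) nor Dll1 (adjusted p = 0.29) was called. In the fit that lacked day 3 replicate 1, and likewise without day 2 replicate 2, none of the 11 calls of the progenitor and Notch lists held (adjusted p without day 3 replicate 1 from 0.0547 to 0.34), and without day 2 replicate 1, 1 of them held.
In glia genes, 1 of 13 rose, the glutamate transporter Slc1a2, from 7.69 and 8.29 CPM to 31 and 26.4 CPM (1.85 ± 0.24, adjusted p = 0.00702, and 0.0844 without day 3 replicate 1). The astrocyte filament gene Gfap stayed at or below 0.436 CPM, and Sox10 was counted in 1 of the 4 libraries, with 4 counts.

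How many cell cycle genes were called depended on the fit, and these genes separated the 2 libraries of day 3. Of 24 S phase genes 1 fell and none rose, with a median of -0.42, and of 24 genes of G2 and M phase 0 were called, with a median of -0.26. In the S phase list 10 were lower with the GC offset, 6 with the GC offset and the replicate block, 5 with the 4 libraries of days 2 and 3 alone and 4 with no filter on low counts, and in the G2 and M phase list these counts were 5, 3, 2 and 0. In both lists none was higher under these settings. Over all genes they called, in the same order, 1021, 832, 795 and 617 lower, against 211 in the main fit. Both day 3 libraries lay below both day 2 libraries in 21 S phase genes and in 14 genes of G2 and M phase, against 31% of all tested genes. In neither list did a gene separate upward. Ccne1, the cyclin that starts S phase, fell from 180 and 187 CPM to 69 and 108 CPM (log2 fold change -1.05 ± 0.20, adjusted p = 0.0285, and 0.165 without day 3 replicate 1). In all 24 genes of each list day 3 replicate 1 lay below replicate 2. Summed CPM of the S phase list was 5566 and 5605 at day 2 and 3572 and 4817 at day 3, and that of the G2 and M phase list was 6944 and 6431 and then 4985 and 6348. For example Mcm5, a helicase subunit, had 251 and 344 CPM at day 3 after 443 and 499 CPM. Among regulators of G1 and cell cycle exit 2 of 16 rose, with a median of 0.57, namely the CDK inhibitor Cdkn1b, from 77.8 and 68.8 CPM to 127.3 and 119 CPM (0.75 ± 0.16, adjusted p = 0.0348), and Rb1, which holds cells in G1 (0.99 ± 0.23, adjusted p = 0.0476). Neither was called without day 3 replicate 1 (adjusted p 0.266 for Cdkn1b and 0.227 for Rb1), nor without any other library of days 2 and 3. Of the 16 regulators of G1 and cell cycle exit, 13 separated upward, against 30.9% of all tested genes, and 2 downward. Day 3 replicate 1 thus had the higher floor plate and vesicle gene levels and the lower dorsal and cell cycle gene levels of the 2 day 3 libraries.

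**Figure D5:**
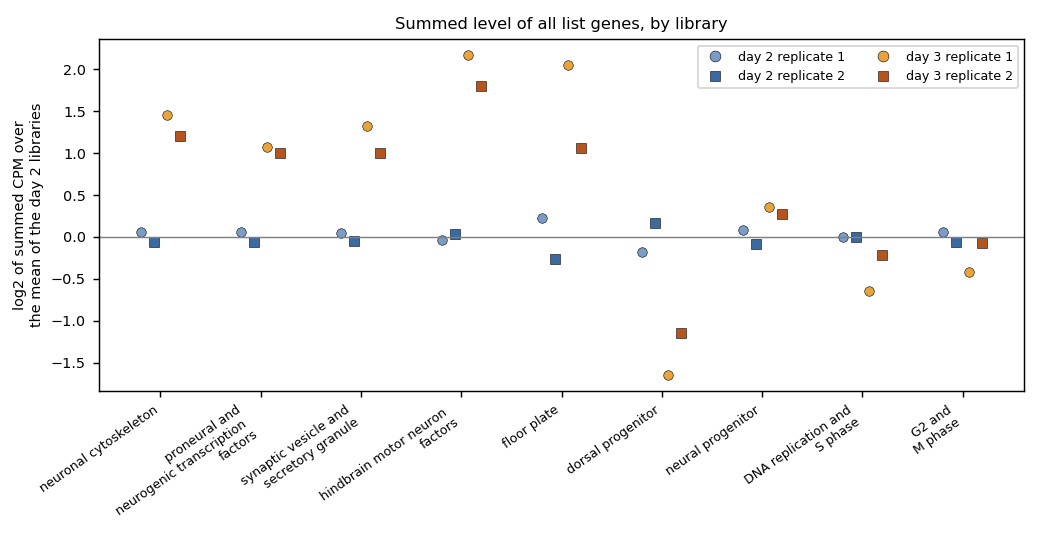
Summed CPM of all genes of 9 lists in each library of days 2 and 3, as the log2 ratio to the mean of the 2 day 2 libraries. The day 3 libraries lie above day 2 for the neuronal and floor plate lists and below it for the dorsal and S phase lists, and day 3 replicate 1 lies farther from day 2 than replicate 2 in all 9 lists.

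Transcripts of pluripotent and germ cells fell in part. Of 15 naive pluripotency genes 3 fell (Zfp42, Dppa5a and Nanog), of 18 genes of general and formative pluripotency 4 fell, and none of either list rose, with medians of -0.82 and -0.82. Gdf3 (chr6:122605403-122610087), a growth factor of the TGF-beta family, stood at 5.02 and 7.16 CPM at day 2 and at 0.472 and 0.618 CPM at day 3 (log2 fold change -3.47 ± 0.28, adjusted p = 0.000853). The de novo methylation genes Dnmt3l and Dnmt3b fell by 1.65 and by 0.83 on the log2 scale (adjusted p = 0.0103 and 0.0348). Pou5f1, the general pluripotency factor, was not called, at 3.75 and 4.76 CPM and then 1.54 and 0.91 CPM (adjusted p = 0.0562), after a mean of 435 CPM at day 0.
Genes of the 2-cell-like state, a rare state of stem cell cultures that resembles the early embryo, had 9 of 14 tested lower, and in all 14 the days were apart, against 31% of all tested genes. The list had the lowest median, -2.84. Zscan4d went from 10.6 and 15.2 CPM to 0.755 and 2.6 CPM (-2.94 ± 0.48, adjusted p = 0.016). Usp17le went from 2.3 and 5.23 CPM to 0.252 and 0.585 CPM. The 9 genes are near-identical copies in the Zscan4 and Usp17l clusters except Zfp352, so values of single members are uncertain.
Of 17 germ cell and meiosis genes 5 fell and none rose, with a median of -1.79. Tdrd1, of the piRNA pathway, went from 6.32 and 8.18 CPM to 1.29 and 1.92 CPM (-2.17 ± 0.35, adjusted p = 0.016), and Dmrt1 (chr19:25505618-25604329), a sex determination factor of the testis that was on no list, from 8.96 and 10.8 CPM to 0.943 and 1.43 CPM (-3.05 ± 0.26, adjusted p = 0.00111). Without day 3 replicate 1, 2 of the 21 calls of these 4 lists held, both in general and formative pluripotency (adjusted p over the 4 lists from 0.0408 to 0.311). Without day 2 replicate 2 there was 1, and without day 2 replicate 1 there were 4.

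Other large falls were in signaling genes. Sfrp5, a secreted inhibitor of Wnt, went from 10.7 and 33.8 CPM to 0.22 and 1.4 CPM (log2 fold change -4.78 ± 0.80, adjusted p = 0.0171). Wnt8a, a posteriorising Wnt ligand, went from 12.6 and 8.51 CPM to 0.566 and 0.878 CPM (-3.86 ± 0.46, adjusted p = 0.00538). Gfra3, a receptor of the GDNF family, and Foxh1, a partner of Nodal signals, fell by 3.19 and by 2.66 on the log2 scale. In these genes no day 3 library reached a day 2 library. Of 14 targets of Wnt, Nodal and BMP signals 2 fell and none rose, with a median of -0.80, among them the Wnt target Sp5, from 6.65 and 7.85 CPM to 1.13 and 2.18 CPM (-2.13 ± 0.43, adjusted p = 0.0318). With day 3 replicate 1 left out, Sfrp5 had an adjusted p of 0.144, Wnt8a 0.0895, Gfra3 0.223 and Foxh1 0.21, and neither Wnt, Nodal and BMP target was called.

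Genes outside the lists were among the largest rises. Gnat3, the alpha subunit of the taste G protein gustducin, had 4 and 7 counts at day 2 and 262 and 193 counts at day 3, or 0.149 and 0.254 CPM and then 8.24 and 6.27 CPM (log2 fold change 5.14 ± 0.51, adjusted p = 0.0063). Scml4, a Polycomb-related protein, went from 0.409 and 0.327 CPM to 4.28 and 11.3 CPM (4.39 ± 0.69, adjusted p = 0.014). Both days were apart in each gene. In the fit that lacked day 3 replicate 1, Gnat3 had an adjusted p of 0.0794 and Scml4 0.0547.
Among called genes, those with the largest differences in FPKM included Vim, Tmsb4x, Nnat, Crabp2 and Vtn. Vim, the intermediate filament of progenitors, rose from 615 to 1170 FPKM as means of the deposited values, with 724 and 617 CPM before 1453 and 1070 CPM (log2 fold change of the counts 0.91 ± 0.19, adjusted p = 0.0348). Tmsb4x, the actin-binding thymosin beta 4, rose from 277 to 686 FPKM. Nnat, an imprinted membrane protein of the developing brain, rose from 113 to 288 FPKM, and Crabp2 fell from 654 to 337 FPKM. Vtn, the matrix protein vitronectin, went from 42.7 and 21.1 CPM to 286 and 134 CPM (2.72 ± 0.46, adjusted p = 0.0177), with replicate 1 above replicate 2 on both days. None of these 5 was called without day 3 replicate 1.

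Markers of other cell types were set beside these changes. Mesoderm and definitive endoderm had 1 of 10 called (Eomes, lower), extraembryonic endoderm 1 of 23 (Cubn, lower, median 0.22), trophoblast and surface ectoderm 0 of 14, muscle 0 of 5, blood and endothelium 1 of 8 (Cdh5, higher), fibroblast 1 of 12 (Acta2, higher) and neural crest 2 of 11 (Ngfr and Ednrb, higher). Ngfr, the p75 neurotrophin receptor, is also a gene of young motor neurons, and Ednrb is also a gene of neural progenitors. Acta2, smooth muscle actin, went from 102 and 72.6 CPM to 308 and 241 CPM (log2 fold change 1.66 ± 0.23, adjusted p = 0.00954). Summed CPM of the fibroblast list was 279 and 258.4 at day 2 and 736.8 and 443.3 at day 3, and that of extraembryonic endoderm was 6267 and 5579 and then 9600 and 5682, with day 3 replicate 1 higher than replicate 2 in 9 of 12 and 19 of 23 members. The crest and oligodendrocyte factor Sox10, the blood gene Ptprc and the muscle factors Myod1 and Myog had at most 6 counts in any of the 4 libraries. None of the 6 calls of these lists held without day 3 replicate 1 (adjusted p from 0.0912 to 0.305), and the part of such cells in the neuronal and floor plate changes was not tested. Immediate early genes and p53 targets had 0 called of 14 and of 15.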

How the data were processed

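Per the labels' protocols, a ZymoPure kit was used for RNA, and Illumina TruSeq with polyA selection for libraries. The submitters' processing notes name HTSeq 0.6.1, limma, TopHat2 2.0.4, Cufflinks 2.1.1, CASAVA and bcl2fastq 1.8.3, and the builds mm10 and GRCm38, without their roles. No source used here gives the annotation or the strand setting of counting. The deposited count table lists 38197 genes by symbol, of which 104 have fractions, so its values were taken as estimated counts and rounded. The deposited FPKM values are the authors' own, and log2 CPM recomputed from the counts differed from the deposited voom values (log2) by at most 4.97e-14.

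Counts of days 0 to 3 (8 libraries) were fitted with edgeR 4.0.16 in R 4.3.3 by the quasi-likelihood F test in a group means model, with TMM factors and genes kept by filterByExpr (minimum count 10), with Benjamini-Hochberg adjustment and a threshold of 0.05. The standard error is the size of the log2 fold change over the square root of F. CPM levels use TMM factors over all 11 libraries. Called means an adjusted p under 0.05. Genes at 3 or fewer counts in each library of a day get no fold. The fit was also tested on simulated data with 200 known changes. It recovered 34.3% of the 2-fold and 73.7% of the 4-fold changes, with 10 false calls. The simulated counts were drawn independently with the dispersions of the fit and without a GC trend. These figures therefore need not hold for the real libraries.

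The comparison, the 47 gene lists (829 genes, of which 743 were tested) and the naming rule were set with earlier results of these data known. Named are, among called genes, the 10 largest rises and falls with at least 5 CPM and no overlap, leaving out clone symbols, up to 4 called genes of each list with the smallest p, the 10 called genes with the largest differences in FPKM, markers, families, and members not called. Shh, Slit1, Sulf1, Myt1, Nhlh2, Phox2a and Neurog3 were named or plotted after their values were seen. List symbols without a match (13) were not analysed here. Some genes that the naming rule covers are not reported here. Gene positions on GRCm38 were looked up by symbol in GENCODE M21. Promoter windows are from RefSeq on GRCm38.p6.

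Alternatives were RLE size factors, no filter, DESeq2 1.42.0, the 4 libraries of days 2 and 3, all 11 libraries, the replicate number as a block with and without a GC offset (lowess span 0.3), the GC offset alone, a minimum log2 fold change of 1, log2(FPKM + 1) and log2(FPKM + 0.1) with limma 3.58.1 on genes with at least 1 FPKM in 2 libraries, the same with no such filter for a pseudocount of 1, each library left out, and limma on the deposited voom values.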

Additional observations from a re-analysis of the deposited data

How the results depend on the processing

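The counts of higher and lower genes (473 and 211) stayed within 1.5 times with RLE size factors (495 and 220) and without each replicate of days 0 and 1 (611 to 650 higher and 273 to 306 lower). They were larger with no filter on low counts (991 and 617), DESeq2 (951 and 523), the 4 libraries of days 2 and 3 (1406 and 795), all 11 libraries (962 and 469), the GC offset (1312 and 1021) and the GC offset with the replicate block (1109 and 832). They were smaller with a minimum log2 fold change of 1 (50 and 7), log2(FPKM + 1) (163 and 53), log2(FPKM + 1) without a filter (209 and 45), log2(FPKM + 0.1) (44 and 44) and the deposited voom values (293 and 155). Leaving out 1 library gave from 10 to 650 higher genes and from 3 to 306 lower genes. No called gene was called in the opposite direction under any setting run. The replicate block gave 282 and 111 calls. No label ties the replicate numbers to a shared culture, and the main fit did not pair the samples. The differences of replicate 2 minus replicate 1 correlated over genes with r = 0.0899 between days 2 and 3. Between other days r ran from -0.633 to 0.278. These differences also followed GC content, with a log2 slope per 10% GC of 0.13 at day 2 and -0.195 at day 3. The correlations therefore cannot decide whether replicates were paired. Olig2 and Sox1, which were not called, changed sign to 0.468 and 0.063 without day 3 replicate 1. Over the libraries left out, the log2 fold change of Olig2 ran from -1.13 to 0.468 and that of Sox1 from -0.499 to 0.063. The cause of these changes was not tested. With 2 libraries a day, a gene that was not called may still differ.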

Other observations

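Metabolic and imprinted genes were set beside all tested genes, of which 4.07% were called in either direction. Of 16 cholesterol synthesis genes 0 were called (median log2 fold change 0.25), and in 12 of them both day 3 libraries lay above both day 2 libraries, against 30.9% of all tested genes, among them Hmgcs1, which makes the precursor of mevalonate, with a log2 fold change of 0.60 ± 0.18 (adjusted p = 0.108). Of 18 genes of glycolysis and hypoxia 1 fell, the glucose transporter Slc2a3, from 404 and 389 CPM to 232 and 192 CPM (log2 fold change -0.90 ± 0.16, adjusted p = 0.0196, and 0.0844 without day 3 replicate 1). Of 17 genes of the amino acid and ATF4 response 1 fell, the pseudokinase Trib3 (-1.70 ± 0.34, adjusted p = 0.0298, and 0.28 without day 3 replicate 1), and in 14 the day 3 libraries lay below day 2, against 31% of all tested genes. With the GC offset, 3 cholesterol genes were higher and 7 genes of the amino acid and ATF4 response were lower. Over all genes that setting called 1312 higher and 1021 lower, against 473 and 211 in the main fit. Of 15 imprinted genes Nnat rose and Grb10, an inhibitor of growth factor signals, fell from 127.5 and 139 CPM to 40.9 and 61.9 CPM (-1.37 ± 0.20, adjusted p = 0.0111). Neither was called without day 3 replicate 1 (adjusted p 0.193 for Nnat and 0.0844 for Grb10).

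The deposited FPKM values disagree with the counts for some genes. In 21 tested genes at least 1 library of days 2 and 3 is listed at 0 FPKM with 100 or more counts. Peg10, an imprinted gene of retrotransposon origin, has 149250 and 186080 counts at day 2 and 85238 and 125380 at day 3, yet it is listed at 0 FPKM in all of these libraries but day 2 replicate 2, where it has 1336 FPKM. Gapdh, a gene that every cell uses, is among the 21.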
